A study of Mus musculus with 5 samples.

Results

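Intronic repeat CpGs were taken as CpG positions on chromosomes 1 to 19 that are soft-masked (lower case) in the mm10 mouse reference, lie inside a GENCODE M21 gene but in none of its exons, lie more than 2 kb from every annotated transcription start site (TSS), and carry more than 20 methylation calls in each of the 5 libraries on the allele described. The rule found 1588 of 132504 called positions on the castaneus allele and 1773 of 127737 on the domesticus allele. Together these were 2832 positions in 1616 soft-masked runs and 1327 annotated host genes, and 529 positions qualified on both alleles. Unmasked intronic positions chosen in the same way, 13877 on castaneus and 13606 on domesticus, served for comparison. A position is 1 cytosine on 1 strand, so the 2 cytosines of a CpG pair and neighbouring positions on a read are not independent.

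The libraries were enhanced reduced representation bisulfite sequencing (eRRBS, in which MspI fragments are bisulfite-converted and sequenced so that methylated cytosines still read as cytosine) of female mouse embryonic fibroblasts (MEFs) from E13.5 embryos. The cells were F1 hybrids of domesticus dams (129 and C57 background) and castaneus sires, and every library, controls included, carried the Xist∆A deletion on the maternal X. The 3 female control libraries were Setdb1+/+ Xist∆A/+ and received the Nonsilencing shRNA, and the 2 Setdb1 depleted libraries were Setdb1+/gt Xist∆A/+, with 1 gene-trapped copy of Setdb1, and received shSetdb1. Genotype and hairpin therefore differ together and cannot be told apart, and the labels do not say whether replicates came from separate embryos or cultures, so p-values measure only the spread between these libraries.

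Each library held 9440874 to 10558931 calls per allele. At intronic repeat positions the median depth was 42 to 46 calls per library, against 46 to 49 at unmasked intronic positions. At the median castaneus depth of 45 calls, 35 methylated calls give 77.8% with an exact Clopper-Pearson 95% interval of 62.9% to 88.8%, which covers counting error only. At the imprinted genes Zrsr1 and Impact, which are known to be methylated on the maternal copy, the domesticus allele held 95.2% and 56.7% and the castaneus allele 3.36% and 3.00%. Promoters of the fibroblast genes Fn1, Vim and Pdgfra, the 3 of 10 listed fibroblast markers with at least 3 covered positions, lay between 0% and 0.202%. Thy1, a further fibroblast marker with fewer positions, held 3.54% on castaneus (2 positions, lower after depletion without overlap) and 39.5% on domesticus (1 position). An unmethylated promoter does not identify a cell type, since those of Tal1, Epcam and Cdh1, markers of blood and epithelium, lay between 1.07% and 2.47%. Among these, Tal1 on castaneus was lower after depletion and Epcam on both alleles higher, without overlap. The blood marker Cd48, with 1 castaneus position, held 65.9%, 71.4% and 84.6% in controls and 64.9% and 52.5% after depletion, also without overlap. The neural gene Pax6 held 5.22% on castaneus and 7.13% on domesticus, with overlap. Of the germ cell genes, Dazl averaged 29.6% on castaneus and 4.07% on domesticus, with overlap of the groups. Sycp3 was lower after depletion without overlap on both alleles, at 81.1%, 87.3% and 85.6% in controls and 70.4% and 60.6% after depletion on castaneus, and 81.4%, 87.4% and 75.4% against 59.9% and 63.1% on domesticus. Ddx4, covered on castaneus at 3 positions, held 76%, 81.1% and 82.6% in controls and 73.3% and 50% after depletion, also without overlap. Tex101, with 1 domesticus position, held 97.01%, 86.7% and 87.8% in controls and 84.6% and 78.05% after depletion, again without overlap. The part of these differences in the results on repeats was not tested.

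Most of the soft-masked mouse genome descends from transposable elements, including short interspersed elements (SINEs) such as B1, which arose from the 7SL RNA of the signal recognition particle, and others related to the neuronal BC1 RNA. CpG methylation is laid down by the Dnmt3 enzymes, copied by Dnmt1 and generally dense at such copies in differentiated cells. Setdb1 is a histone H3 lysine 9 methyltransferase known for silencing retroviral elements, mainly in embryonic stem cells and the early embryo. The comparison of the groups asks whether its depletion in fibroblasts is accompanied by a change of CpG methylation at intronic repeats.

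The soft-masked runs were mostly short. Their lengths ranged from 19 to 10676 bp with a median of 96 bp, and 956 of the 1616 held a single member position. A local alignment (blastn) found similarity to the mouse B1_Mus2 element in 186 runs, to 7SL RNA in 118 and to BC1 RNA in 87. These classes overlap, and a match in any part of a run counted for the whole run. Low-complexity sequence was not filtered out of the search, and its part in the matches was not tested. Tandem repeats with units of at most 12 bp filled most of 13 runs, and longer units were not searched. The remaining runs were not assigned to a repeat class, since only soft masking was used. The B1_Mus2 copy is shown because sites along it are compared further on, with its own 2 CpGs in capitals, as annotated by RefSeq at chr7:103823699-103823836 (plus strand, mm10). Bases 99 and 100 are a CpG in this copy.

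B1_Mus2: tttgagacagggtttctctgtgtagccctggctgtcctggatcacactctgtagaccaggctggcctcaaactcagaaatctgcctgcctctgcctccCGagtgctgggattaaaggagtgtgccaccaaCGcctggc

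The next 6 clusters are shown because they carry differences described further on. At Fam110b castaneus was higher than domesticus in every library, and the others differed between the groups without overlap. A cluster is a set of at least 3 member positions with gaps of at most 100 bp, and each sequence runs from 20 bases before its first to 20 bases after its last member position on the plus strand of the mm10 reference, with the CpGs of its member positions in capitals. The reference is C57BL/6, so castaneus bases can differ. The regions are chr9:107089683-107089775 (Dock3), chr9:18356672-18356789 (Naalad2), chr16:90721233-90721293 (Mis18a), chr11:61230563-61230618 (Aldh3a2), chr2:22382391-22382499 (Myo3a) and chr4:5885070-5885201 (Fam110b), all intronic.

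Dock3: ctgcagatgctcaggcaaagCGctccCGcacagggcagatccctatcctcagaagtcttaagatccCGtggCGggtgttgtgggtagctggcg
Naalad2: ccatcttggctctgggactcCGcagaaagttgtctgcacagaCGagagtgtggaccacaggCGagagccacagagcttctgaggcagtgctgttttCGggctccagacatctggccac
Mis18a: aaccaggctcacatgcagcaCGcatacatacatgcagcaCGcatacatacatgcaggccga
Aldh3a2: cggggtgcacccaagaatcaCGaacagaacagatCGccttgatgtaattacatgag
Myo3a: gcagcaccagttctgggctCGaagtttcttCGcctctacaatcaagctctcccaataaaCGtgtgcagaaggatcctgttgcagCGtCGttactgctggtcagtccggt
Fam110b: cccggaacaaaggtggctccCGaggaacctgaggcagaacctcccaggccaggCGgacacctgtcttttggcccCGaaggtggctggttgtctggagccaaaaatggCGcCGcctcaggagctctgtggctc

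Intronic repeats were highly methylated in every library. On the castaneus allele the mean methylation over 1588 positions was 78.1% in control 1, 77.9% in control 2, 76.8% in control 3, 77.3% in depleted 1 and 77.4% in depleted 2. On the domesticus allele it was 78.8%, 79.6% and 78.01% in controls, then 78.8% and 79.0% with Setdb1 depleted, over 1773 positions. Both depleted libraries lay inside the range of the controls on each allele. Unmasked intronic positions were lower in all 5 libraries, at 65.9% to 67.5% on castaneus and 66.0% to 67.7% on domesticus. The repeats exceeded them by 10.8 percentage points on castaneus (mean of 5 libraries, range 9.9 to 11.6) and by 11.9 points on domesticus (range 11.3 to 12.1). The difference had the same sign in 5 of 5 libraries on each allele (exact sign-flip permutation test, two-sided p = 0.0625, the smallest 5 libraries allow, adjusted p = 0.219 over 7 tests).

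**Figure D1:**
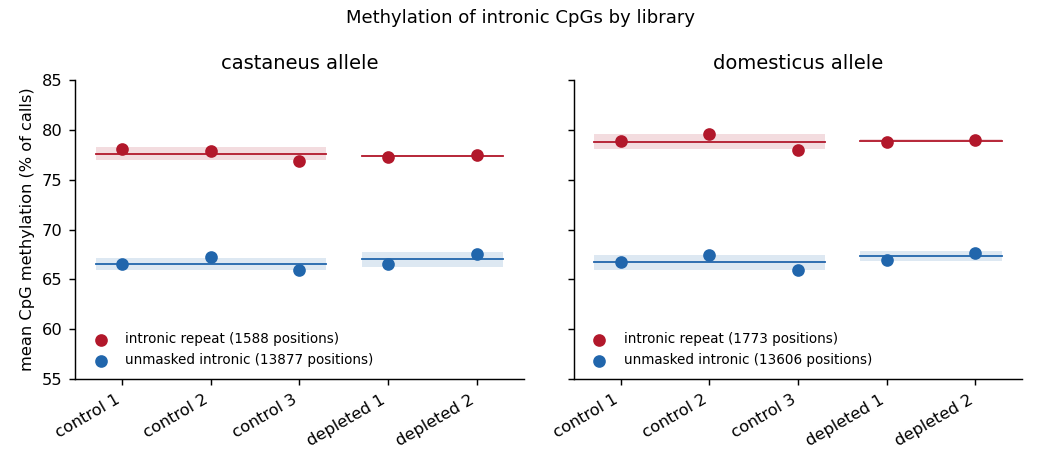
Mean CpG methylation (% of calls, axis from 55 to 85) of intronic repeat positions (red) and unmasked intronic positions (blue) in each library, by allele. Lines and bands are group means and 1 SD (n = 3 controls, n = 2 depleted); the repeats lie above the unmasked positions by 9.9 to 12.1 points in every library, and the depleted libraries lie within the control range of the repeats.

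Positions over 80% were more common and positions under 20% less common among the repeats than among unmasked introns, a comparison that was not tested. Positions over 80% (mean of the 2 group means) made up 63.7% of repeats against 48.9% of unmasked positions on castaneus, and 66.2% against 48.8% on domesticus. Positions under 20% made up 4.53% against 13.8% on castaneus and 3.33% against 13.4% on domesticus.

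The difference between the classes grew with local CpG density. With up to 4 CpGs in the surrounding 200 bp, repeats exceeded unmasked positions by 3.61 points on castaneus and 4.68 on domesticus. With 5 to 9 CpGs the difference was 7.65 and 7.86 points, and with 10 to 14 CpGs it was 25.2 and 26.5 points. At 15 CpGs and more, unmasked positions averaged 5.96% on castaneus (653 positions) and 12.8% on domesticus (655 positions), while repeats averaged 47.3% (33 positions in 12 hosts) and 76.2% (37 positions in 14 hosts). In each of the 4 density classes, on each allele, the repeats were higher in 5 of 5 libraries (p = 0.0625 by exact sign-flip permutation, the smallest possible), and the trend over classes was not tested. The 2 alleles hold different positions in the densest class. On the 10 of these positions covered on both alleles the levels were 62.0% on castaneus and 62.7% on domesticus, and 14 of the 33 castaneus positions but 4 of the 37 domesticus positions were under 20%.

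**Figure D2:**
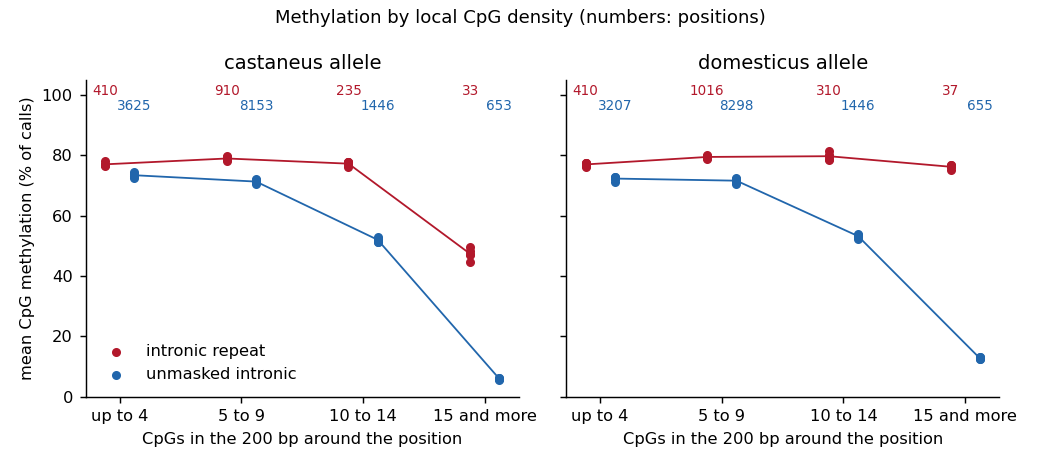
Mean CpG methylation (% of calls) against the number of CpGs in the 200 bp around a position, for intronic repeats (red) and unmasked introns (blue), by allele. Points are the 5 libraries, lines join their means and the numbers above give positions; unmasked positions fall to 5.96% and 12.8% in the densest class, where repeats are at 47.3% and 76.2%.

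Among the repeats, the shortest runs were the least methylated. Members in runs of 19 to 49 bp averaged 71.3% on castaneus and 72.4% on domesticus, and those in runs of 200 bp and more 80.5% and 82.1%. Positions whose centred 25-mer occurs once in the reference averaged 75.3% and 76.2%. Those where it occurs 2 to 10 times averaged 80.3% and 81.8%, and those where it occurs over 10 times 80.04% and 81.4%. The single-copy members exceeded single-copy unmasked positions by 8.63 and 9.39 points, in 5 of 5 libraries on each allele. Runs similar to 7SL RNA averaged 85.7% on castaneus (128 positions) and 86.1% on domesticus (156 positions), and B1-like runs 83.9% (193 positions) and 83.5% (229 positions). BC1-like runs averaged 86.5% (100 positions) and 77.3% (108 positions), over positions that differ between the alleles. The means of these similarity classes take every member of a matched run, inside or outside the matched stretch. Tandem repeats were the lowest of the sequence classes, at 47.6% on castaneus (11 positions in 6 hosts) and 73.5% on domesticus (24 positions in 8 hosts). These positions also differ between the alleles. Members with none of these similarities averaged 76.6% and 78.3%, still above unmasked introns. These classes were not tested against each other.

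**Figure D3:**
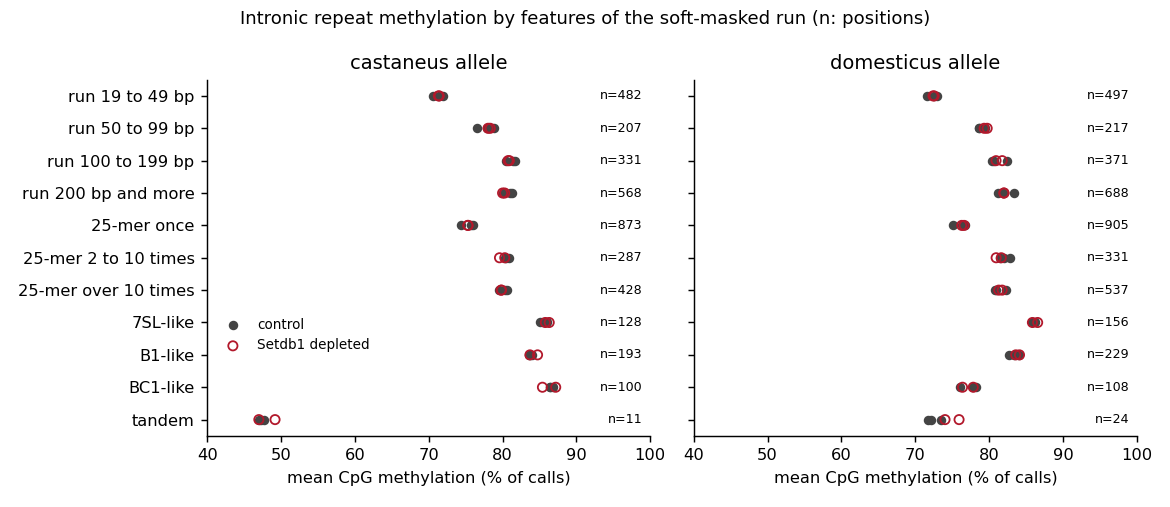
Mean CpG methylation of intronic repeats (% of calls, axis from 40 to 100) by length of the soft-masked run, number of copies of the centred 25-mer and sequence similarity, by allele. Filled points are the 3 controls, open circles the 2 depleted libraries and n gives positions; runs of 19 to 49 bp lie at 71.3% and 72.4%, and 7SL-like runs at 85.7% and 86.1%.

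Levels along B1 copies are given for the 5 sites with at least 15 members on each allele, a limit set after the values were seen. Members aligned to bases 82 and 83 of the B1_Mus2 element averaged 80.4% on castaneus (18 positions) and 78.01% on domesticus (22 positions). Members at bases 122 to 123 averaged 94.1% (21 positions) and 90.9% (19 positions). At bases 118 and 119 the means were 86.9% (36 positions) and 90.1% (39 positions), at 68 and 69 they were 85.1% and 87.1%, and at 99 and 100 they were 84.7% and 81.6%. The sites at 82 and 83 were the lowest of the 5 and those at 122 and 123 the highest on each allele, in the means of the 5 libraries, but on domesticus neither place was fixed across libraries. There the sites at 118 and 122 changed order, and in control 3 the site at 99 and 100, at 77.2%, lay below that at 82 and 83, at 78.5%. At bases 82 and 83 depleted minus control was -3.49 points on castaneus and 2.04 points on domesticus, in each case without overlap of the libraries and in opposite directions, and the difference between the alleles was not tested. At bases 99 and 100, depleted minus control was 5.05 points on castaneus, without overlap, and 0.936 points on domesticus, with overlap. At bases 122 and 123 castaneus differed by -1.17 points without overlap.

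Repeats 2 to 5 kb from the nearest TSS averaged 74.3% on castaneus and 75.7% on domesticus, and those over 20 kb away 79.4% and 80.2%. Repeats hosted only by protein-coding genes averaged 78.5% and 79.97%, and those hosted only by lincRNA genes 72.2% and 75.1%. In each of these groups the repeats exceeded the matching unmasked positions, by 9.70 to 18.1 points.

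Setdb1 depletion was not accompanied by a detectable change of mean repeat methylation. On castaneus control libraries averaged 77.6% ± 0.665 (SD, n = 3) and depleted libraries 77.4% ± 0.0996 (SD, n = 2), a difference of -0.232 points (range of the 6 library pairs -0.78 to 0.598, exact permutation test, two-sided p = 0.8). On domesticus they averaged 78.8% ± 0.771 and 78.9% ± 0.127, a difference of 0.0988 points (-0.749 to 0.973, exact permutation p = 0.8). With 3 libraries against 2 the smallest p is 0.1, so this design cannot pass 0.05. Unmasked intronic means differed by 0.475 and 0.614 points, both higher after depletion (exact permutation p = 0.5 and 0.4). The gap between repeats and unmasked introns was smaller after depletion by less than 1 point on each allele. It was 11.6, 10.7 and 10.9 points in castaneus controls and 10.8 and 9.9 after depletion, a difference of -0.707 (exact permutation p = 0.3). On domesticus it was 12.1, 12.1 and 12.01 points in controls and 11.8 and 11.3 after depletion, a difference of -0.515 whose libraries did not overlap (exact permutation p = 0.1, the smallest possible, adjusted p = 0.219). The domesticus exact permutation p was 0.5 with more than 10 calls (-0.32 points), 0.4 for single-copy 25-mers (-0.261 points, with overlap) and 0.3 for positions covered on both alleles (-0.355 points). Without depleted 2 the differences were -0.257 points on castaneus and -0.262 on domesticus. Among the classes of repeats by sequence and position, a few did not overlap between the groups. The classes share positions with each other, and their p-values were not adjusted for the number of classes. On castaneus, repeats with 10 to 14 CpGs in 200 bp differed by -1.25 points (235 positions) and those whose 25-mer occurs 2 to 10 times by -0.634 points (287 positions), each with an exact permutation p of 0.1. On domesticus, repeats with up to 4 CpGs differed by 0.627 points (410 positions) and tandem repeats by 2.51 points (24 positions), each with an exact permutation p of 0.2. The gap itself was smaller without overlap on domesticus for protein-coding hosts only (-0.749 points), over 20 kb from a TSS (-0.72) and at 5 to 9 CpGs (-0.756), and on castaneus at 5 to 20 kb (-0.977). In hosts that were only lincRNA genes the domesticus gap went the other way without overlap, and was larger by 1.10 points, and unmasked positions there were also higher without overlap, by 0.703 points. Repeats there held 73.97%, 75.5% and 73.6% in controls and 76.2% and 76.1% after depletion (252 positions, exact permutation p = 0.2), while in the same class on castaneus they differed by -0.202 points and the gap by -0.551 points.

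The difference at the few members of low methylation depended on how they were chosen, a comparison added after the data were seen. Positions under 20%, chosen on the mean of the 2 group means, differed by -1.92 points on castaneus (72 positions) and -1.53 on domesticus (59 positions), both without overlap. Without depleted 2 the domesticus difference was -0.822 points, and without depleted 1 it was -2.23. Unmasked intronic positions under 20% differed by -0.579 and -0.657 points, also without overlap. Chosen on the control mean alone, the differences were -0.5 and 0.144 points, and on the depleted mean alone -3.32 and -3.25 points.

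No intronic repeat position passed an adjusted p of 0.05 in a quasi-binomial model across all called positions. On castaneus 0 of 1588 repeats were called against 0.00226% of all 132504 positions (3 calls), and on domesticus 0 of 1773 against 0.0352% of all 127737 (45 calls). At an unadjusted p under 0.05 there were 79 repeats on castaneus, 36 of them lower after depletion, and 73 on domesticus, 39 of them lower. These were 4.97% and 4.12% of the repeats, against 2.51% and 2.48% of all positions and 5.38% and 5.23% of unmasked intronic positions. limma on log2 ratios of methylated to unmethylated calls also called 0, with 76 and 73 repeats at an unadjusted p under 0.05, where all positions gave 6246 of 132504 and 5963 of 127737. Libraries of the groups did not overlap, with depletion lower, at 161 castaneus and 172 domesticus repeats (10.1% and 9.70%), and with depletion higher at 151 and 154 (9.51% and 8.69%). Over all positions these shares were 4.49% and 4.56% lower and 4.69% and 4.84% higher, and over unmasked intronic positions 9.07% and 8.59% lower and 9.94% and 10.7% higher. The shares for repeats thus lay near those of unmasked introns.

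There were 142 clusters with 569 member positions on castaneus and 169 with 675 on domesticus, with median methylation of 87.8% and 88.4%. Of these clusters, 102 and 129 were over 80%, and 4 and 3 under 20%. No repeat cluster was called by the quasi-binomial model, against 0.041% of all 14627 castaneus clusters (6 calls) and 0.0492% of all 14215 domesticus clusters (7 calls). At an unadjusted p under 0.05 there were 2 and 5 repeat clusters. These were 1.41% and 2.96% of repeat clusters, against 3.68% and 4.01% of all clusters and 6.18% and 6.35% of unmasked intronic clusters. limma called 0, with 3 and 3 repeat clusters at that level, where all clusters gave 789 of 14627 and 778 of 14215. On castaneus 17 of 142 clusters were lower without overlap and 5 higher, against 7.78% and 7.79% of all clusters. On domesticus 7 of 169 were lower and 13 higher, against 8.14% and 7.62%. Unmasked intronic clusters gave 9.27% lower and 10.5% higher on castaneus, and 9.52% and 10.7% on domesticus. The mean differed by less than 5 points in 113 of 142 and 141 of 169 clusters.

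**Figure D4:**
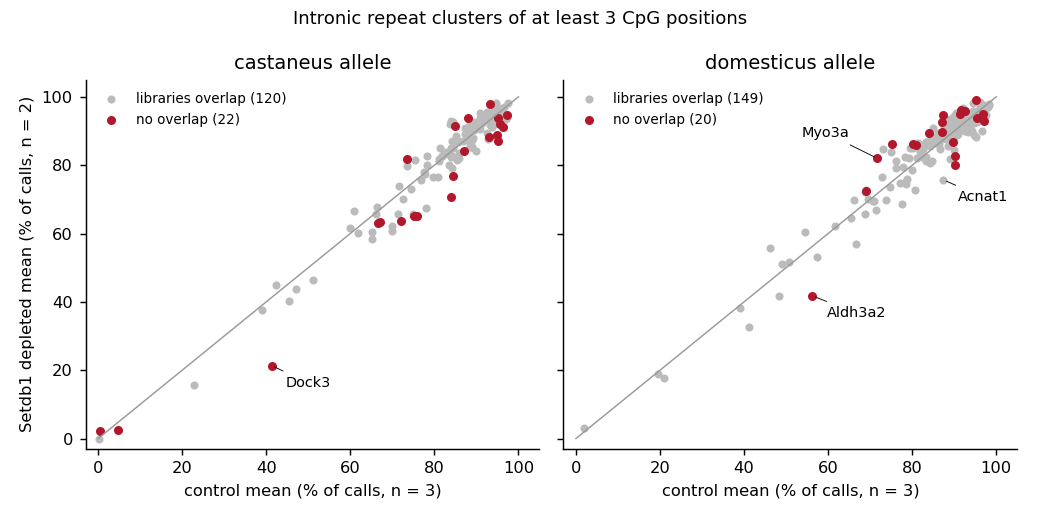
Mean methylation of each intronic repeat cluster (% of calls) in the 3 controls (x) and the 2 depleted libraries (y), by allele, with the line of equality. Red points are the 22 castaneus and 20 domesticus clusters whose libraries did not overlap; Dock3 lies farthest below the line on castaneus, at 41.3% and 21.4%.

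The largest difference was at a cluster in an intron of Dock3, a guanine nucleotide exchange factor for Rac (chr9:107089703-107089755, 6 positions in a run of 178 bp, 310 to 447 castaneus calls per library). It held 44.8%, 37.7% and 41.2% in controls and 21.9% and 20.8% after depletion. The depleted libraries lay below all controls, and the difference was -19.9 points (control SD 3.58, depleted SD 0.79), with p = 0.000169 and an adjusted p of 0.107 over all clusters by the quasi-binomial model, which misses the threshold. Its 6 positions lie at 4 CpGs, and their centred 25-mers occur 2 to 17 times in the reference. Of these positions, 5 were lower without overlap and the sixth, at 107089754, was 15.3% in controls and 16.8% after depletion. The other strand of that CpG, at 107089755, held 38.4% in controls and 22.3% after depletion. No position of this cluster qualified on domesticus.

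Other clusters without overlap differed by less and had an adjusted p of 1 by the quasi-binomial model. On castaneus, Naalad2, a peptidase gene, held 71.7%, 82.8% and 70.7% in controls and 66.9% and 63.2% after depletion (181 to 283 calls). On domesticus 3 positions of the same run gave 76.2% in controls and 81.2% after depletion, with overlap. At these 3 positions castaneus held 79.6%, 90.9% and 72.1% in controls and 79.8% and 68.0% after depletion, also with overlap. The cluster in the lincRNA gene 4932412D23Rik held 82.6%, 86.1% and 83.3% in controls and 81.3% and 59.8% after depletion, so most of its mean difference of -13.5 points lay in depleted library 2, and on domesticus the same cluster differed by 3.82 points with overlap. Asb3 (78.9%, 70.9% and 66.3% against 61.7% and 65.6%) and 4932414N04Rik (76.2%, 72.3% and 79.4% against 61.9% and 68.6%) were also lower. Among the higher ones was Cyp2c66, a cytochrome P450 gene (72.4%, 79.4% and 68.8% against 80.4% and 83.0%). Muc16, a mucin (83.2%, 84.5% and 87.1% against 90.4% and 92.6%), and Cabcoco1 (88.0% against 93.7% in the means) were higher as well. So was Mis18a, a centromere licensing factor (93.4%, 94.0% and 92.6% against 97.3% and 98.2%). The Mis18a run of 170 bp matched B1 in some part, which need not hold the member positions. On domesticus the Muc16 and Mis18a clusters differed by 1.18 and 0.461 points, with overlap. The sets of Muc16 positions differ between the alleles. The cluster in AC121886.1 was near 0 throughout, at 0.481% and 2.15%.

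On domesticus the largest non-overlapping negative difference was in Aldh3a2, a fatty aldehyde dehydrogenase (chr11:61230583-61230598, 4 positions, 132 to 256 calls). It held 55.1%, 53.0% and 60.6% in controls and 39.8% and 43.8% after depletion, a difference of -14.4 points. Pde1a, a phosphodiesterase, held 87.0%, 92.5% and 90.7% against 73.7% and 86.2%. Rbfox1, a splicing factor, held 92.1%, 90.3% and 88.1% against 80.5% and 84.6%, and Magi1, a scaffold protein, 98.8%, 94.2% and 98.4% against 92.3% and 93.4%, both in runs similar to B1 and BC1. A second 4932414N04Rik cluster differed by -2.93 points. Of the higher clusters, Myo3a, a myosin, held 69.5%, 73.1% and 72.5% against 75.9% and 88.1%, and Gpr158, a receptor, 73.5%, 74.4% and 77.6% against 91.95% and 80.2%. In both, 1 depleted library stood well above the other. 4930412B13Rik, Gm7046 and Scn1a, a sodium channel, were higher by 7.43, 5.79 and 5.51 points. At Scn1a the alleles went in opposite directions, both without overlap, over sets of positions that differ between the alleles. Domesticus held 86.9%, 86.7% and 88.0% in controls and 92.8% and 92.7% after depletion, and castaneus 93.4%, 97.3% and 94.4% in controls and 86.5% and 87.8% after depletion over 3 positions, a difference of -7.91 points with an adjusted p of 1 by the quasi-binomial model. The difference between the alleles was not tested. On castaneus the Myo3a, Magi1, 4930412B13Rik and Gm7046 clusters differed by 6.08, 0.282, 1.05 and 0.944 points, all with overlap. The sets of Gm7046 positions also differ between the alleles.

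The least methylated clusters of at least 5 positions were few. On castaneus the cluster in Fam172a, which overlaps Gm38604 (5 positions in a run of 21 bp, 197 to 247 calls), held 0.422% in 1 control and 0% in the other 4 libraries. After Dock3 came Mfsd4a with Gm26892 (47.2% in controls and 43.6% after depletion), Trim30d (65.2% and 60.3%) and Gm43647 (67.1% and 63.4%, 12 positions). On domesticus the lowest were Pglyrp3 (66.7% and 56.98%), Gm28526 (65.5% and 64.6%), Nrg3 (71.5% and 66.98%), Myo3a and Gm43647 (78.8% and 75.8%). None had an adjusted p under 0.05 by the quasi-binomial model. At Pglyrp3 the depleted libraries held 69.0% and 45.0%, with overlap, so its lower mean after depletion lay in depleted 2.

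Host genes carried few members each. Gm20388, an annotated transcript that spans other genes on chromosome 8, had the most, 19 on each allele, at 72.3% ± 0.866 and 70.5% ± 0.361 on castaneus, without overlap (exact permutation p = 0.2), and 72.6% ± 2.07 and 72.5% ± 0.782 on domesticus (SD, n = 3 controls and n = 2 depleted). Gm37013, Gm37388 and Gm42416 share the same 9 castaneus and 12 domesticus positions on chromosome 18. These held 70.8% and 64.4% on castaneus and 75.04% and 72.8% on domesticus. Fam110b held 93.7% and 92.8% on castaneus (7 positions) and 88.5% and 89.0% on domesticus (11 positions). Of 35 genes listed for H3K9 methylation, DNA methylation and repeat silencing, only Tet1, which oxidises 5-methylcytosine, hosted a member, 1 domesticus position at 91.0%, 96.3% and 97.5% in controls and 74.5% and 97.9% after depletion.

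Over the 529 shared positions castaneus held 79.5%, 79.3% and 77.6% in controls and 78.8% and 78.3% after depletion, and domesticus 78.3%, 78.7% and 76.8%, then 77.7% and 78.6%. Castaneus minus domesticus was 0.671 points over the 5 libraries, positive in 4 of 5 (exact sign-flip permutation p = 0.125, adjusted p = 0.219). At 83.6% of positions the alleles differed by under 10 points, with a median absolute difference of 3.86 points. Castaneus was lower in 5 of 5 libraries at 35 positions (6.62%) and higher at 34 (6.43%), against 2.81% and 2.8% of all 58939 autosomal positions covered on both alleles and 7.26% and 6.35% of the unmasked intronic ones. At 1 position castaneus lay under 5% and domesticus over 50% in every library, and at 0 positions the reverse held. Of 38 clusters covered on both alleles, castaneus was lower in 5 of 5 libraries in 2 (5.26%) and higher in 1 (2.63%), against 5.45% and 5.01% of all 7305 such autosomal clusters and 11.8% and 10.3% of 600 unmasked intronic ones. These cluster shares lay near or below those of all clusters, and 0 of the 38 clusters differed by 20 points or more with the same sign in 5 of 5 libraries. The 3 clusters were E230032D23Rik (79.1% ± 3.47 on castaneus and 83.4% ± 3.25 on domesticus), Zfp804a (82.1% ± 3.55 and 86.1% ± 4.58) and Fam110b (93.0% ± 1.81 and 88.6% ± 2.11; SD, n = 5 libraries for each).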

How the data were processed

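Calls of methylated and unmethylated CpG were measured by eRRBS in 3 female control and 2 Setdb1 depleted MEF libraries. Per the labels, the methods and the file headers, the authors trimmed reads with Trim Galore, aligned them with Bismark to an mm10 genome masked at strain differences, extracted calls (Bismark extractor 0.13.0), and assigned reads to domesticus or castaneus with SNPsplit. The deposited files hold 1 call per line, an other unit, not counts or percentages. Removal of PCR duplicates is not given in the sources used here, and 5.34% to 5.66% of calls came from reads that the sequencer filter had marked and were kept. Strain differences on the list used for that masking give no call. A cytosine that is thymine in castaneus but missing from that list would read as unmethylated. No list of strain differences was used here.

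Calls were summed per position (Python 3.11.15, pandas 2.3.3), and 99.2% of positions called in every library lay at reference CpGs. Level tests were exact permutations over library labels or signs. Groups were compared across all positions or clusters with a quasi-binomial model whose dispersions were squeezed by limma 3.58.1 (R 4.3.3) with a trend on depth, adjusted by Benjamini-Hochberg, and with limma on log2 ratios with a pseudocount of 0.5. The model was tested on simulated data. A first version without the trend called too many unchanged simulated clusters after it had already been run on these libraries, and it is kept as an added alternative. Similarity used blastn 2.17.0 (e-value limit 1e-05), and the B1 and BC1 comparisons were added after the files were seen. Members, gene lists and tests were chosen with earlier results of these data known. Named clusters were those past the threshold (none), the 5 lowest of at least 5 positions, the 5 largest differences each way without overlap, per allele, and up to 5 each way between alleles; named hosts were the 5 with most members and the listed silencing genes. Alternatives were other depth limits, pooled calls, marked reads left out, merged strands, other TSS, run, copy, gene, cluster and allele limits, each library left out, and a replicate block. The block left out control 3, whose number does not occur among the depleted libraries.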

Additional observations from a re-analysis of the deposited data

How the results depend on the processing

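The excess of repeats over unmasked introns kept its sign under the alternatives run, from 8.63 (single-copy positions) to 14.5 points on castaneus and from 9.39 to 14.8 on domesticus, and from 10.6 to 11 and 11.8 to 12 with each library left out. The change of that excess stayed negative, from -1.03 to -0.506 on castaneus and -0.752 to -0.261 on domesticus, and with each library left out from -1.16 to -0.257 and from -0.769 to -0.262. The change of mean repeat methylation had no stable sign. On castaneus it was 0.0176 with more than 10 calls, and ranged from -0.612 to 0.00696 with each library left out. On domesticus it was -0.233 with more than 40 calls, -0.0914 in protein-coding genes only and -0.0106 in runs of at least 100 bp, and ranged from -0.293 to 0.478 with each library left out. Castaneus minus domesticus was -0.00981 with more than 10 calls and -1.67 with more than 40 calls (56 positions), and 0.542 to 0.923 with each library left out. The domesticus change of positions under 20% was 0.144 when they were chosen on the control mean. The cause of these differences was not tested.

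Repeat calls were 0 on castaneus and 0 to 1 on domesticus with each library left out, for positions and for clusters. The domesticus calls were a position in Acnat1 (without control 1, or without depleted 1) and its cluster (without control 1), and a position in Gm32772 (without control 2). With all libraries their adjusted p by the quasi-binomial model were 0.107, 0.617 and 0.341. The Acnat1 position held 71.1%, 100% and 96.9% in controls and 71.8% and 40.7% after depletion, and the Gm32772 position 68%, 96.4% and 0% against 86.0% and 89.3%. All other alternatives, the constant dispersion prior included, called 0 repeats.

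Replicate numbers 1 and 2 occur in both groups, but the labels do not pair them, and deviations of same-numbered libraries correlated at -0.0467 to 0.0427 over repeat positions. The replicate block used only the libraries numbered 1 and 2, so control 3 was left out. With the block the domesticus change of mean repeat methylation was -0.293 and the castaneus change -0.612. These are the same values as without control 3 and no block. With the block 0 repeats were called. Over all features the quasi-binomial model called 6 castaneus and 7 domesticus clusters, against 20 and 40 with the block and 0 by limma, and 3 castaneus and 45 domesticus positions, against 1 and 56 with the block and 0 by limma. With each library left out these were 1 (without depleted 1) to 22 (without control 3) castaneus clusters, 0 (without depleted 1) to 14 (without control 1) domesticus clusters, 1 (without control 3) to 3 castaneus positions and 26 (without depleted 2) to 63 (without control 1) domesticus positions. Without control 2 there were 18 castaneus and 11 domesticus clusters. With more than 40 calls 0 castaneus clusters, 0 castaneus positions and 14 domesticus positions were called. Depth of about 45 calls per position limits single positions, and 2 depleted libraries limit every group test.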
